A study of Mus musculus with 9 samples.

Results

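Transcript levels in a Dkk1 knockout line were compared with those in a control line, both described by their labels as mouse epiblast stem cells. The libraries were chosen by their genotype labels, 3 labelled DKK1 KO and 2 labelled control, which makes 5 of the 9 libraries of the series. Both lines were kept in 20 ng/mL Activin A and 10 ng/mL FGF2 with no inhibitor, on inactivated mouse embryonic fibroblasts in serum replacement medium. The other 4 libraries came from a line kept in 5 µM IWP2, a blocker of Wnt secretion, and from a line whose IWP2 was withdrawn after derivation, 2 libraries each. They shared the Activin A and FGF2 medium, entered the estimate of spread, and serve as further libraries without the knockout. The labels give no strain, sex or passage, do not say which part of Dkk1 was deleted, and name 1 line per genotype, so the knockout and the line cannot be told apart.

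Epiblast stem cells are derived from the epiblast, the layer that forms the embryo proper, and are held in a primed pluripotent state by Activin and FGF signalling. Pou5f1 and Nanog define their identity, and Tdgf1, Fgf5 and Otx2 mark the primed state. The trophoblast lineage separates earlier and forms the placenta. Its stem cells lie in the extraembryonic ectoderm, depend on FGF, and use a circuit of factors that includes Cdx2, Eomes, Elf5, Tfap2c and Esrrb, and they are a polarised epithelium, whereas mesoderm and definitive endoderm arise from the epiblast through an epithelial to mesenchymal transition. Dkk1 is a secreted antagonist of Wnt signalling that acts at the co-receptors Lrp5 and Lrp6.

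The 5 libraries held 10849490 to 15618539 estimated reads. Levels are given as TPM, a transcript's share of its library scaled for its length. The knockout libraries were far more alike than the control libraries. Their pairwise chi-square per degree of freedom, which counting error alone would put near 1, was 1.74 to 2.16, against 29.3 for the control pair. The labels do not say whether the knockout libraries were separate cultures, so their spread may be technical and the p-values may count only that spread. Calls were therefore also made with the knockout libraries averaged to 1. The 3 libraries labelled DKK1 KO also went against their label of epiblast stem cell, with Pou5f1, Nanog and Tdgf1 all at 1.58 TPM or less. All levels are bulk averages, in which fewer cells of a type and less RNA per cell cannot be told apart.

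Dkk1 itself (ENSMUSG00000024868.8, chromosome 19, GRCm38) was at 2.36 and 2.64 TPM in the control libraries and at 0.190, 0.228 and 0.309 TPM in the knockout libraries. The groups did not overlap, and the log2 fold change was -3.13 ± 0.68 (SE, edgeR adjusted p = 0.00597), but with the knockout libraries averaged to 1 the adjusted p was 0.129. The share of all genes whose groups do not overlap is not given here, so lack of overlap is a description, here and below. A low level was not particular to the knockout, since the 4 IWP2-line libraries ran from 0.0930 to 1.69 TPM. The level of the remaining transcript does not check the allele without the position of the deletion.

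Across 18096 genes tested, 3857 were higher in the knockout (21.3%) and 4161 lower (23.0%) by edgeR's quasi-likelihood test at an adjusted p below 0.05. These shares are the background for every count of listed genes below. For 6433 genes (35.5%) the 95% interval of the change lay within 2-fold in either direction, and such genes are called held here. Of the held genes 1254 were also called, for changes smaller than 2-fold, and 4899 genes (27.1%) were neither called nor held. The median log2 fold change over all genes was -0.03. Changes of at least 32-fold were fitted for 331 of the genes called higher and 291 of those called lower. Higher genes made up 48.1% of calls, and 35.9% with limma-trend on log2(TPM + 0.1), where the median over all genes moved to -0.17. With the knockout libraries averaged to 1, 1355 genes were higher, 1369 lower and 3416 held.

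**Figure D1:**
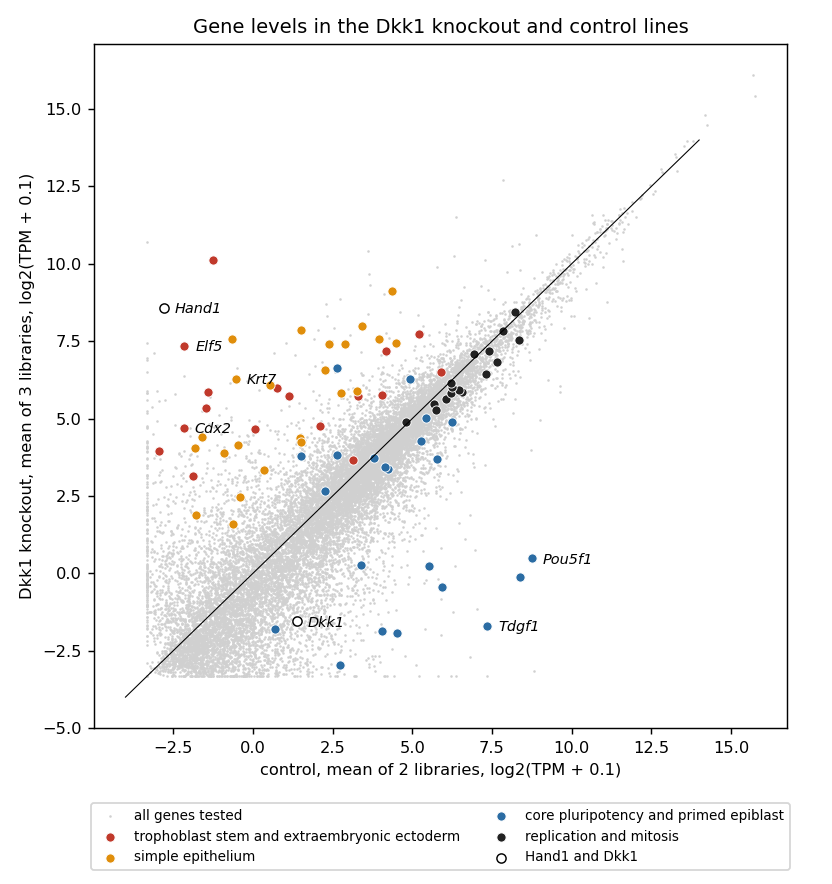
Mean level of each tested gene in the control line (x axis, 2 libraries) and the Dkk1 knockout line (y axis, 3 libraries), as log2(TPM + 0.1), with the line of equality. Trophoblast stem and simple epithelium genes lie above the line, Pou5f1 and Tdgf1 far below it, and the replication and mitosis genes near it, most of them somewhat below.

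The knockout libraries carried the transcripts of trophoblast stem cells and extraembryonic ectoderm. Of 17 genes in this list, all tested, 16 were higher (14 with the knockout libraries averaged to 1), 0 were lower and 0 were held, with a median log2 fold change of 4.90. Their summed level was 180 and 139 TPM in control and 2160, 2190 and 2160 TPM in the knockout. Most of the knockout sum was Rhox5 alone, at 1130, 1130 and 1110 TPM, which is also counted among the X-linked homeobox genes below. The list includes genes that earlier results from these libraries had shown, so its direction is a description.

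Elf5 (ENSMUSG00000027186.14) is a transcription factor that locks in trophoblast fate. It was at 0.203 and 0.0468 TPM in control and at 162, 171 and 157 TPM in the knockout (log2 fold change 10.65, edgeR adjusted p = 2.2e-07). In control no Elf5 transcript had more than 2 reads in a library, so the fold is imprecise and its SE is not given. The 4 IWP2-line libraries did not exceed 0.209 TPM, so only the knockout libraries were high. The gene has 2 RefSeq starts on chromosome 2. Near the downstream RefSeq start, position 103424068, Elf5-201, starting at 103424062, reached 59.0, 59.6 and 58.5 TPM in the knockout, and Elf5-207, starting at 103424126, reached 73.1, 68.5 and 72.8 TPM. Elf5-203, starting at 103424828, was at 28.1, 38.6 and 22.1 TPM. The protein-coding Elf5-206, starting at 103411688, was at 0 TPM in all 5 libraries, and the retained-intron transcript Elf5-204, starting at 103411713, did not exceed 0.852 TPM. Both begin before the window of the upstream RefSeq start, position 103412098. The 300-base RefSeq windows around both starts (250 bases before to 50 after, GRCm38.p6, plus strand, 5′ to 3′) are shown because the abundant transcripts began near or after the downstream one. The upstream window, chr2:103411848-103412147, holds 3 CG pairs and the downstream window, chr2:103423818-103424117, holds 10. Capitals mark matches to any of 7 motifs searched on both strands, here CATTCC (TEAD) in the upstream window and the reverse complement of CTTTGAT (TCF/LEF) in the downstream one.
Elf5 upstream start: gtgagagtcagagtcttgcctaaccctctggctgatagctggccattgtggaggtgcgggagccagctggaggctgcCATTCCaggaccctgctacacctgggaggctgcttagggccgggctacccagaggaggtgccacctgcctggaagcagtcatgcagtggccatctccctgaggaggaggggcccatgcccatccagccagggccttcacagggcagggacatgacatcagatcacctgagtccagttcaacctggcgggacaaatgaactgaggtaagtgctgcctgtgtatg
Elf5 downstream start: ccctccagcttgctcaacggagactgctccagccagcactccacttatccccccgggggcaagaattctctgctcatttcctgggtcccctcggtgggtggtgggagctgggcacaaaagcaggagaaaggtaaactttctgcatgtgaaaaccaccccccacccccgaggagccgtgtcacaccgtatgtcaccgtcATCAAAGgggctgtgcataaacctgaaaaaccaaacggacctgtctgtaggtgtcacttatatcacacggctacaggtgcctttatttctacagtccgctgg
Of 12544 tested genes whose symbol matched a RefSeq window, 12.4% held CATTCC and 2.5% held CTTTGAT on either strand.

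The other stem cell factors moved with Elf5. Cdx2, which specifies trophectoderm, was at 0.202 and 0.0398 TPM in control and at 27.2, 24.6 and 26.2 TPM in the knockout (log2 fold change 8.17 ± 0.48, SE). Control levels under 1 TPM rest on few reads, so an SE against such a level may be too small. Esrrb, an orphan nuclear receptor of naive and trophoblast stem cells, was at 0.309 and 0.219 TPM against 41.2, 40.9 and 40.4 TPM (7.97 ± 0.28). Nearly all of it came from Esrrb-203, at 38.3 to 39.7 TPM in the knockout. Tfap2c (4.83 ± 0.43), Gata3 (5.21 ± 0.35), Tead4 (4.90 ± 0.27) and Ets2 (2.92 ± 0.15), all transcription factors of early trophoblast, rose as well. Bmp8b, a ligand made by the extraembryonic ectoderm, was at 0.389 and 0.163 TPM in control and at 56.0, 58.7 and 58.9 TPM in the knockout. In none of these genes did the groups overlap, which is a description only. Eomes, a T-box factor of trophoblast stem cells and of the primitive streak, was at 17.1 and 2.43 TPM against 53.2, 53.7 and 52.8 TPM, and Bmp4 at 67.7 and 51.7 TPM against 88.0, 86.0 and 96.6 TPM. Both were called (adjusted p = 0.0133 and 0.00232), but not with the knockout libraries averaged to 1 (0.0925 and 0.0687). Sox21 was the 1 member not called, at 8.59 and 8.71 TPM against 12.3, 12 and 13.6 TPM.

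Markers of the later placental cell types were split. Of 13 ectoplacental cone and spongiotrophoblast genes 8 were tested, 4 of these were higher and 0 lower, and 3 were higher with the knockout libraries averaged to 1. The imprinted placental growth regulator Phlda2 was at 2.13 and 5.07 TPM in control and at 60.2, 57.7 and 61.2 TPM in the knockout. Tpbpa, the defining spongiotrophoblast gene, was at 0 TPM in both control libraries and in 2 knockout libraries, and at 0.0691 TPM in the third. Prl3b1 and Prl7b1, placental prolactin family hormones, were at 0 TPM in all 5 libraries. Ascl2, the factor of ectoplacental progenitors, was at 0.249 and 0.383 TPM against 0.703, 0.832 and 0.621 TPM and was not called (adjusted p = 0.144).

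Giant cell genes showed the same split. Hand1 (ENSMUSG00000037335.13), a basic helix-loop-helix factor of giant cells and early mesoderm, was at 0.0869 and 0 TPM in control and at 372, 400 and 377 TPM in the knockout. The control level rests on 2 reads, so no fold is given. Of 13 genes 8 were tested, with 4 higher (Hand1, Gata2, Mmp9 and Cited1) and 2 lower (Psg16 and Lifr), and the 2 lower calls ended with the knockout libraries averaged to 1. The shares over all genes were 21.3% higher and 23.0% lower. Cited1, a transcriptional cofactor of the placenta, was at 4.61 and 2.72 TPM against 186, 197 and 181 TPM, and the matrix protease Mmp9 at 4.32 and 2.25 TPM against 86.1, 85.5 and 90.3 TPM. Of the hormone and protease genes of mature giant cells, Prl2c2, which encodes proliferin, was at 3.86 and 1.62 TPM in control and at 7.48, 7.06 and 10.2 TPM in the knockout and was not called (adjusted p = 0.0841). Prl3d1, placental lactogen, was at 0 TPM in all 5 libraries, and the cathepsins Ctsq and Ctsj did not exceed 0.0459 TPM.

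Of 13 syncytiotrophoblast and labyrinth genes 11 were tested, 5 were higher and 2 lower, and 4 and 2 with the knockout libraries averaged to 1. Gcm1, the factor that starts syncytiotrophoblast formation, was called at a level of only 0.199 to 0.346 TPM in the knockout, and not with those libraries averaged to 1 (adjusted p = 0.168). The fusion proteins Syna and Synb did not exceed 0.254 TPM in any of the 5 libraries. Of 10 X-linked homeobox genes of the placenta 7 were tested and all 7 were higher, 5 of them with the knockout libraries averaged to 1. Rhox5 was at 0.402 and 0.238 TPM in control and at 1130, 1130 and 1110 TPM in the knockout. Rhox6, Rhox9 and Esx1 had no read in control. Against a floor of 3 counts over the control group Rhox9 was at least 1710-fold higher, Rhox6 at least 1370-fold and Esx1, a homeobox gene of the labyrinth, at least 675-fold. The median of the 7 was 11.98 on the log2 scale as fitted, and 9.40 with genes absent from control at their bound.

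**Figure D2:**
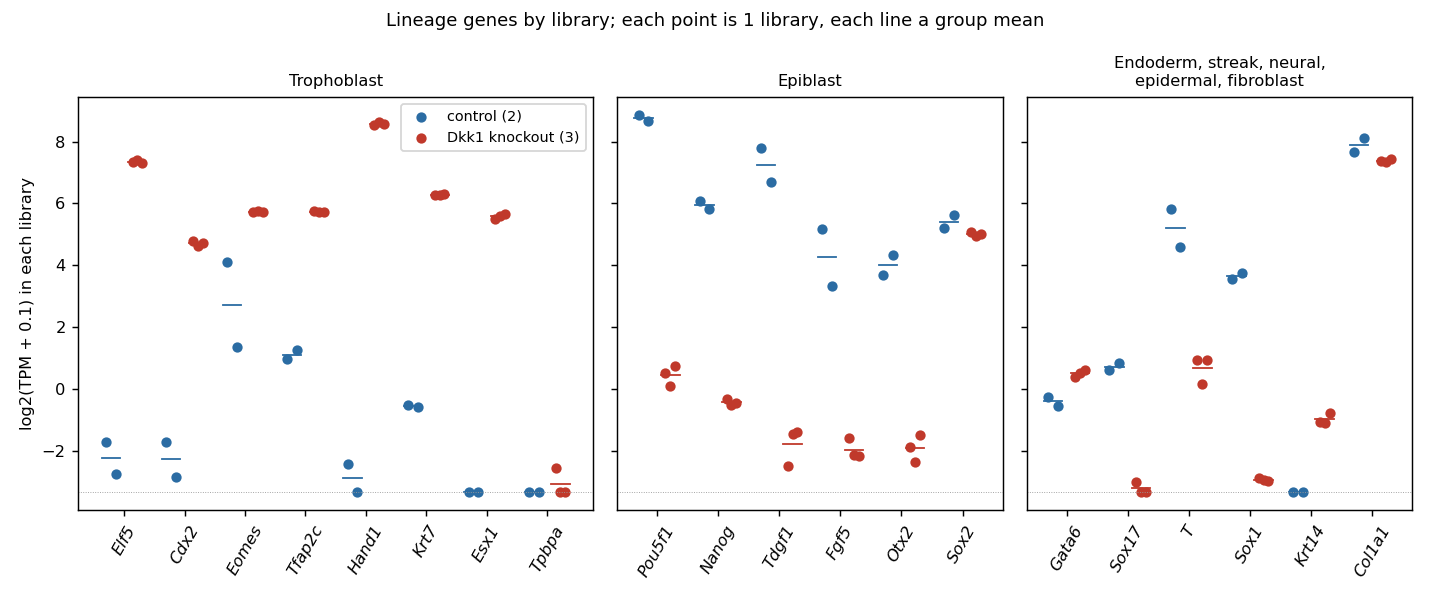
Level of lineage genes in each library as log2(TPM + 0.1), with 1 point per library and a line at the mean of the points of each group. The trophoblast stem genes are high in the 3 knockout libraries, the spongiotrophoblast gene Tpbpa is near the dotted line that marks 0 TPM in all 5 libraries, and Sox2 differs from the other epiblast genes in being at a like level in both groups.

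Simple epithelium genes rose as a group. Of 24 genes 23 were tested and 23 were higher, with 0 held and a median of 4.73 (log2), and 22 were higher with the knockout libraries averaged to 1. Only Ovol1 had too few reads, at 0.0734 TPM or less. The summed level was 102 and 132 TPM in control and 2380, 2400 and 2480 TPM in the knockout. Krt7, a keratin of trophoblast and other simple epithelia, was at 0.602 and 0.573 TPM against 77.5, 77.8 and 78.8 TPM (log2 fold change 6.24 ± 0.24, SE, edgeR adjusted p = 1.23e-06). Krt8 and Krt18, a keratin pair of simple epithelia, were at 250 to 257 and 543 to 560 TPM in the knockout, against 15 and 28 TPM in the higher control library. E-cadherin, the adhesion protein encoded by Cdh1, was at 6.34 and 3.82 TPM against 171, 168 and 172 TPM, and the tight-junction gene Cldn4 at 0.259 and 0.817 TPM against 190, 183 and 197 TPM. Grhl2, a factor that maintains epithelia, was at 0.877 and 0.356 TPM against 15.9, 18.7 and 18.3 TPM.

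Mesenchymal genes were mixed. Of 8 genes 4 were lower, 1 higher and 1 held. Cdh2, the cadherin of mesenchymal and neural cells, was at 35.7 and 21.3 TPM in control and at 1.58, 1.54 and 1.49 TPM in the knockout, and the repressor Zeb1 at 32 and 11.1 TPM against 7.55, 1.51 and 1.86 TPM. Vim, an intermediate filament gene, fell from 1170 and 863 TPM to 299, 330 and 314 TPM, a call that ended with the knockout libraries averaged to 1 (adjusted p = 0.0508). Snai1 was higher, at 7.65, 7.34 and 7.18 TPM against 3.89 and 3.18 TPM, and lost its call in the same way (0.0691). Twist1 was held, and Fn1, a fibronectin gene, was at 315 and 158 TPM against 212, 219 and 214 TPM. Vim and Zeb1 are also made by fibroblasts, and of the 16 feeder fibroblast genes 11 were lower and 0 higher. The part of the feeders in these differences was not tested.

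Exon use differed in the same libraries. Esrp1, an RNA-binding protein that sets epithelial splicing, was at 0.218 and 0.146 TPM in control and at 17.1, 16.1 and 16.2 TPM in the knockout (log2 fold change 6.77 ± 0.32, SE). Inclusion of an exon was computed as the share of TPM from protein-coding transcripts that contain it among those that span it, for 39 exons of 5 genes chosen for known epithelial or lineage-dependent forms with the level of Esrp1 already known. Of these exons 6 differed between group means by over 30 percentage points. They include 2 alternative exons of Fgfr2 and an adjacent pair in Dnmt3b with equal shares, so they are not 6 separate differences. Such shares rest on the authors' transcript estimates, and an exact two-sided permutation test with 3 libraries against 2 cannot go below p = 0.2, so they are descriptions.

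Enah encodes a regulator of actin whose epithelial form carries an extra exon of 63 bases. Among spanning protein-coding transcripts, that exon was in 7.24% and 6.68% of TPM in control and in 54.6%, 56.5% and 57.9% in the knockout. The 4 IWP2-line libraries ran from 3.74% to 7.16%, so the 3 knockout libraries stood apart from the other 6. The share of all Enah TPM was smaller. Enah-202, the 1 such transcript with the exon, made up 2.89% and 2.47% of it in control and 23.9%, 24.8% and 22.6% in the knockout. The level of Enah as a whole was not called (log2 fold change -0.17 ± 0.13, SE). Fgfr2, an FGF receptor, is spliced in alternative forms that differ in part of the ligand-binding domain, and the form sets which FGFs bind. The exon of 148 bases, the epithelial form, was in 4.37% and 7.32% of spanning transcripts in control and in 47.7%, 55.4% and 47.9% in the knockout. No IWP2-line library exceeded 15.6%. The exons of 63 and 148 bases are shown whole because their use separated the lines. Their letters come from GENCODE vM21 transcripts of GRCm38, 5′ to 3′ on the minus strand, for Enah at chr1:181911597-181911659 and for Fgfr2 at chr7:130199758-130199905.
Enah exon of 63 bases: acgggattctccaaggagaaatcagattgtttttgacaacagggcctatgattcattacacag
Fgfr2 exon of 148 bases: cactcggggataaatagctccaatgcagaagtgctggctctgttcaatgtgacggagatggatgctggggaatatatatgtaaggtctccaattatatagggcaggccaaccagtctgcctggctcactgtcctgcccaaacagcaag
A smaller difference was seen in Ctnnd1, which encodes the cadherin partner p120-catenin. An exon of 18 bases was in 54.7% and 32.7% of its spanning protein-coding transcripts in control and in 14%, 11% and 14.3% in the knockout. In Dnmt3b, a DNA methyltransferase, a pair of adjacent coding exons of 70 and 119 bases was in 53.2% and 49.9% in control and in 87.7%, 88.0% and 84.5% in the knockout. The 10 variable exons of Cd44, another gene with epithelial forms, differed by at most 5.87 points.

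**Figure D3:**
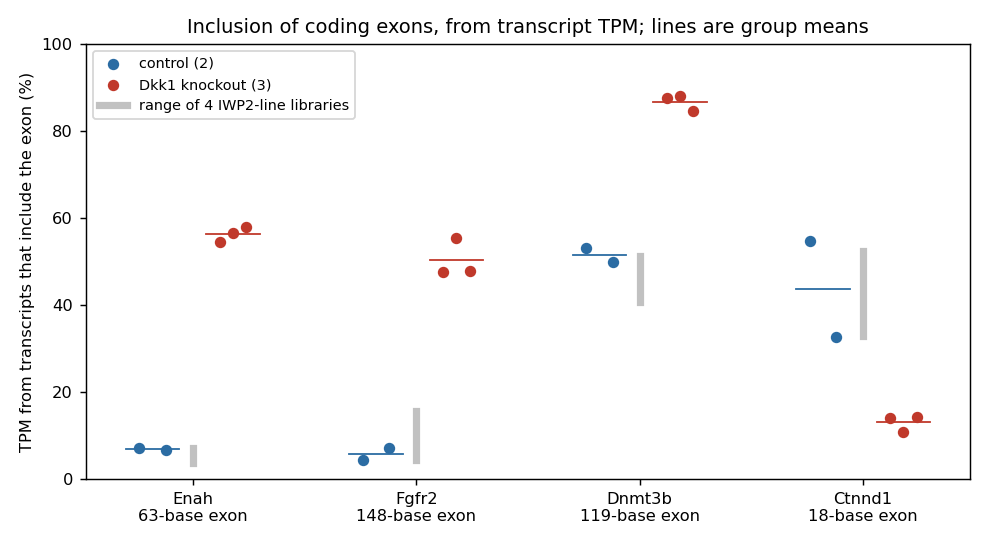
Share of the TPM of spanning protein-coding transcripts that comes from those including each exon (y axis, %). Each point is 1 library, lines are group means and grey bars are the range of the 4 IWP2-line libraries. The Enah exon of 63 bases and the Fgfr2 exon of 148 bases are at 7.32% or less in control and at 47.7% or more in the knockout.

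The genes that define epiblast stem cells were nearly absent from the knockout libraries. Pou5f1 was at 460 and 403 TPM in control and at 1.34, 0.971 and 1.58 TPM in the knockout (log2 fold change -8.35 ± 0.55, SE, edgeR adjusted p = 1.19e-05). Nanog was at 66.9 and 56.3 TPM against 0.689, 0.598 and 0.627 TPM, and Tdgf1, a co-receptor for Nodal, at 224 and 104 TPM against 0.0772, 0.263 and 0.282 TPM. Otx2, a factor of the primed and anterior epiblast, was at 12.8 and 20.1 TPM against 0.170, 0.0952 and 0.259 TPM, and the ligand Fgf5 at 36.1 and 9.98 TPM against 0.231, 0.129 and 0.120 TPM. For each of these genes the groups did not overlap, which is a description only.

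Not every gene of the pluripotency list fell. Of 22 genes, all tested, 13 were lower, 4 higher and 2 held, the median log2 fold change being -1.43. Of these, 10 were lower and 3 higher with the knockout libraries averaged to 1. Sox2, which trophoblast stem cells also need, was at 36.7 and 49.2 TPM in control and at 33.4, 30.7 and 32.4 TPM in the knockout and was held. Zic5 was held too, at 13.3 and 14.5 TPM against 12.4, 15.3 and 11.2 TPM. Utf1, a chromatin-associated gene, was higher, at 99.9, 93.5 and 106 TPM against 7.67 and 4.46 TPM, as was Dnmt3b, at 76.5, 78.7 and 78.9 TPM against 32.1 and 28.2 TPM. Nodal was not called, at 23.1 and 12.1 TPM against 10.1, 10.8 and 10.8 TPM, while its inhibitor and target Lefty1 fell from 382 and 278 TPM to 1.01, 0.695 and 0.736 TPM.

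Genes of naive pluripotency, several of which also serve in trophoblast stem cells, included more calls higher than lower. Of 17 genes 14 were tested, 8 were higher and 3 lower, and with the knockout libraries averaged to 1 these were 7 and 0. Zfp42 had no read in control and was at 19.5, 19.1 and 19.6 TPM in the knockout, at least 454-fold higher. Klf5, a factor of trophectoderm and naive cells, was at 2.73 and 2.60 TPM against 17.4, 16.2 and 17.3 TPM, and Tfcp2l1 at 0.855 and 0.423 TPM against 9.48, 9.15 and 8.47 TPM. Klf2 was not called, at 3.64 and 2.13 TPM against 2.85, 2.54 and 3.34 TPM. Dppa3, Prdm14 and Tcl1 had too few reads to test and did not exceed 0.153 TPM in any of the 5 libraries.

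Germ layer genes of the embryo proper were mixed. Their counts stand beside shares of 23.0% lower and 21.3% higher over all genes tested. Of 18 primitive streak and mesoderm genes 15 were tested, 6 were lower and 4 higher, and 4 and 0 with the knockout libraries averaged to 1. T, the founding factor of the streak, was at 56.3 and 24.1 TPM in control and at 1.80, 1.01 and 1.83 TPM in the knockout, and Wnt8a at 50.2 and 19.3 TPM against 0, 0.0302 and 0.0562 TPM. The 4 genes higher (Mesp2, Hes7, Cdx1 and Foxf1) did not exceed 0.932 TPM. Of 14 neural genes 12 were tested, 6 were lower and 2 higher, and 5 and 0 with the knockout libraries averaged to 1. Sox1 was at 11.7 and 13.2 TPM against 0.0362, 0.0296 and 0.0275 TPM, and En1 at 15 and 12 TPM against 0.681, 0.517 and 0.567 TPM. Irx3, a factor of neural and mesodermal patterning, was higher, at 11, 12.1 and 12.3 TPM against 5.21 and 5.88 TPM. It and Six3, the other gene higher, lost their calls with averaging (adjusted p = 0.107 and 0.0915). Zic1 was not called, at 1.37 and 3.01 TPM against 4.55, 1.55 and 3.46 TPM.

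Other extraembryonic and surface lineages were not carried in full. Of 16 extraembryonic endoderm genes 12 were tested, with 3 higher and 3 lower, shares near the 21.3% and 23.0% over all genes, and 3 higher and 1 lower with the knockout libraries averaged to 1. Gata6, which specifies this lineage, was at 0.735 and 0.584 TPM in control and at 1.20, 1.32 and 1.43 TPM in the knockout and was not called (adjusted p = 0.061). Sox17 was at 1.42 and 1.69 TPM against 0.0240, 0 and 0 TPM, a call that ended with averaging (adjusted p = 0.118). Foxa2 was at 22.2 and 16.1 TPM against 0.752, 1.12 and 0.970 TPM, while Gata4 rose from 0.715 and 0.315 TPM to 5.89, 5.45 and 5.61 TPM. The secreted yolk sac products Afp, Ttr and Apoa1 did not exceed 0.383 TPM. Of 13 surface ectoderm, epidermis and amnion genes 11 were tested, 6 were higher and 1 lower, and 3 and 1 with the knockout libraries averaged to 1. The higher genes included Tfap2a, Grhl3 and Wnt6, a ligand at 31.4, 33.7 and 34.7 TPM against 0.745 and 0.298 TPM. The epidermal markers Trp63 and Krt5 were not called and did not exceed 0.0864 TPM in the knockout, and Krt14 did not exceed 0.482 TPM.

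Germ cell genes were higher at low levels. Of 10 genes 8 were tested, and 6 were higher and 0 lower (5 with the knockout libraries averaged to 1). Ddx4, an RNA helicase of the germ line, was at 0.0807 and 0.0579 TPM in control and at 2.36, 2.62 and 2.39 TPM in the knockout. Sycp3, a protein of the meiotic chromosome axis, was at 0.0760 and 0 TPM against 2.17, 2.46 and 2.42 TPM. Mael, of the piRNA pathway, had no read in control and was at least 31.6-fold higher, at 1.63, 1.64 and 1.49 TPM. Nanos3, of primordial germ cells, was not called. Among 10 blood and endothelium genes 7 were tested, with 3 higher and 2 lower, the latter ending with the knockout libraries averaged to 1. For all genes tested the shares were 21.3% and 23.0%. Ptprc, the pan-leukocyte antigen, was not called, at 0.757 and 0.382 TPM against 0.599, 1.23 and 0.563 TPM, whereas Cd68 rose from 9.29 and 3.18 TPM to 45.4, 39.6 and 45.7 TPM. Haemoglobin genes did not exceed 0.561 TPM.

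Feeder fibroblast genes were lower in the knockout libraries. Of 16 genes, all tested, 11 were lower, 0 higher and 4 held, and 5 were lower with the knockout libraries averaged to 1. Their summed level was 1910 and 1500 TPM in control and 624, 645 and 632 TPM in the knockout. Dcn, a matrix proteoglycan, was at 33.5 and 44.4 TPM against 2.07, 2.33 and 2.40 TPM, and Col3a1 at 240 and 368 TPM against 73.4, 71.7 and 66.9 TPM. Col1a1 was not called, at 201 and 277 TPM against 165, 161 and 173 TPM. The part of feeder RNA in the other lower calls was not tested. Within the feeder list the log2 fold changes ran from -3.89 for Dcn to -0.15 for Prrx1.

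The medium acts through FGF and Activin receptors. Of 15 receptor and Smad genes 14 were tested, 5 were higher, 2 lower and 7 held, and 3 were higher and 1 lower with the knockout libraries averaged to 1. Over all genes 21.3% were higher and 23.0% lower, so the number called was near that of genes in general. Fgfr2, the receptor that maintains trophoblast stem cells, was at 18.9 and 16.7 TPM in control and at 147, 150 and 140 TPM in the knockout (log2 fold change 3.33 ± 0.12, SE, edgeR adjusted p = 1.19e-06). Much of this was the retained-intron Fgfr2-224, at 67.9, 66.3 and 59.5 TPM in the knockout. Protein-coding transcripts spanning the exon of 148 bases were at 6.89 and 6.31 TPM in control and 43.8, 43.1 and 42.2 TPM in the knockout. Fgfr4 was at 0.595 and 0.273 TPM against 13.4, 19.2 and 18.2 TPM. Fgfr1 rose less, from 151 and 138 TPM to 233, 232 and 240 TPM, and lost its call with limma-trend on log2(TPM + 1) (adjusted p = 0.147). Tgfbr1, a type I receptor of the TGF-beta family, fell from 20.2 and 14.7 TPM to 3.25, 3.20 and 3.16 TPM. The signal transducers Smad2 and Smad3 and the Activin receptor Acvr2a were held, with log2 fold changes of -0.17 ± 0.14, 0.13 ± 0.25 and -0.16 ± 0.14 (SE).

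FGF response genes did not move one way. Of 11 tested 4 were lower, 1 higher and 1 held, and 2 were lower and 0 higher with the knockout libraries averaged to 1. Among all genes tested 23.0% were lower, 21.3% higher and 35.5% held. Spry2, a feedback inhibitor, was at 55.2 and 27.3 TPM in control and at 7.33, 7.0 and 8.03 TPM in the knockout, and Dusp6, a phosphatase of ERK, at 128 and 52.8 TPM against 21.9, 23.9 and 24.1 TPM. Dusp6 lost its call with the knockout libraries averaged to 1 (adjusted p = 0.142) and without control replicate 1 (0.105). The 1 gene higher, the immediate early gene Fos, was at 122 and 43.4 TPM against 218, 235 and 243 TPM, and lost its call with the knockout libraries averaged to 1 (0.198), with limma-trend, with the length offset and without any 1 library but control replicate 1 (0.0811 to 0.222). Etv4 was not called, at 22.8 and 6.04 TPM against 16.1, 17.8 and 21.1 TPM. Of 17 tested genes of the Dkk family and Wnt response 3 were higher, 6 lower and 5 held, and 0 and 3 were called with the knockout libraries averaged to 1. Beside the shares over all genes these counts differ by only a few genes. Lef1, a factor and target of the pathway, was at 4.59 and 9.74 TPM against 0.578, 0.150 and 0.138 TPM, and Nkd1, a feedback inhibitor, at 11.5 and 9.93 TPM against 1.42, 1.40 and 1.34 TPM. The 3 genes higher were the co-receptor Lrp5, Kremen1 and Tcf7, with log2 fold changes of 0.80 ± 0.16, 1.07 ± 0.18 and 0.81 ± 0.22 (SE). The Wnt co-receptor Lrp6, the antagonist Dkk3 and the repressor Tcf7l1 were held, with log2 fold changes of -0.07 ± 0.18, -0.30 ± 0.24 and 0.32 ± 0.21 (SE).

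The replication and mitosis genes were held. All 16 had intervals within 2-fold, with a median log2 fold change of -0.11. Mki67, a marker of cycling cells, was at 28.9 and 27.3 TPM in control and at 29.4, 30.9 and 28.9 TPM in the knockout, and Top2a at 236 and 221 TPM against 228, 228 and 227 TPM. The summed TPM was lower, at 2240 and 1980 in control and 1730, 1700 and 1710 in the knockout. Held is judged on counts, and TPM can differ. Mcm2 was at 314 and 334 TPM against 187, 185 and 180 TPM, with a log2 fold change of -0.20 ± 0.13 (SE) on counts. Mcm3, Mcm7 and Pcna, of replication forks, were lower by less than 2-fold and the mitotic kinase Cdk1 was higher, and these 4 calls ended with the knockout libraries averaged to 1. Of 37 tested proteasome subunits 36 were held, as were 11 of 13 mitochondrially encoded genes and 43 of 78 cytosolic ribosomal protein genes. For comparison, 59.3% of all genes with a mean of 10 to 50 TPM were held and 64.1% of those above 50 TPM, against 28.2% from 1 to 10 TPM and 2.31% below 1 TPM. The ribosomal protein genes fell short of both upper shares. Mitochondrially encoded genes summed to 66300 and 32200 TPM in control and 53800, 55200 and 54800 TPM in the knockout. The control libraries thus differed from each other by more than the group means did. A call of held needs a narrow interval, whose median half-width was 0.40 on the log2 scale above 50 TPM and 1.35 below 1 TPM, so the rule finds few unchanged genes among weakly expressed ones.

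**Figure D4:**
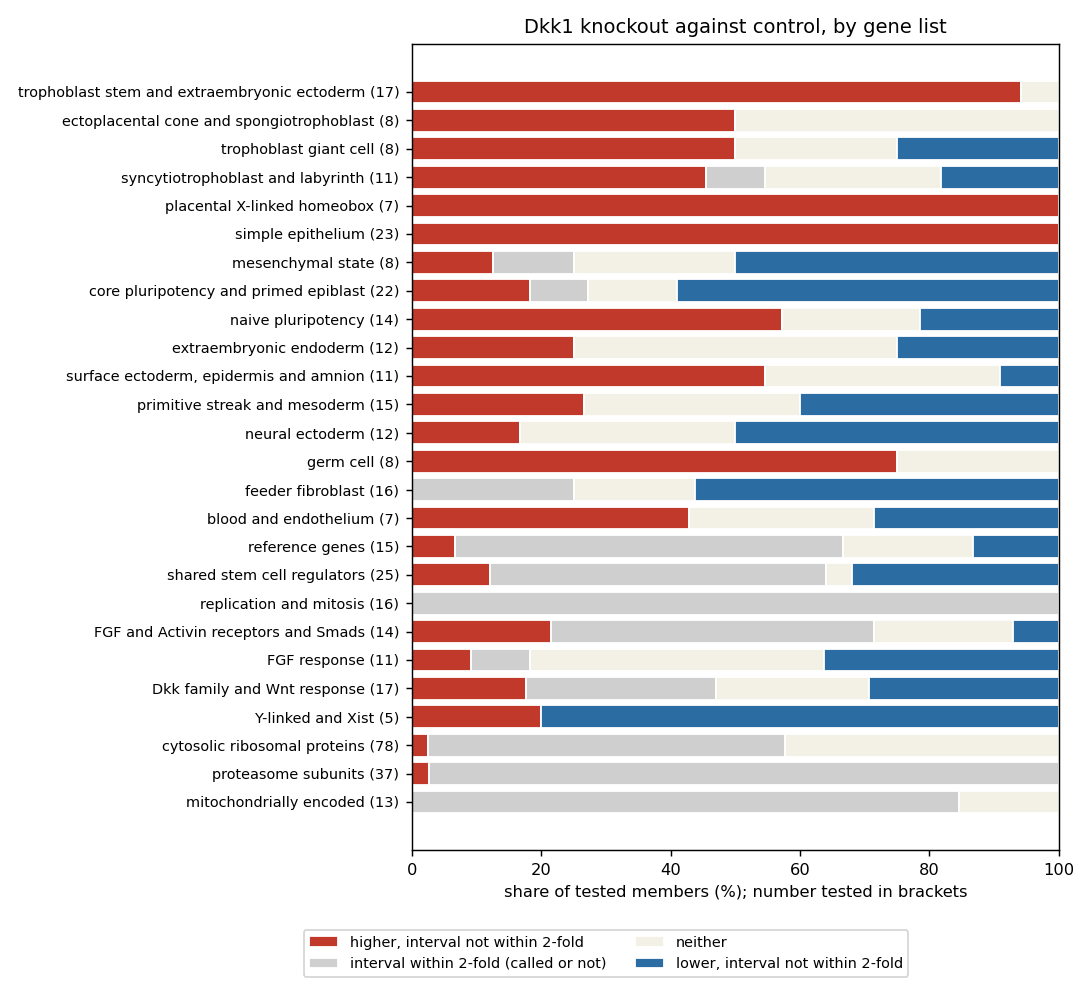
Share of tested members of each gene list (x axis, %) that were higher, held within 2-fold, neither, or lower in the Dkk1 knockout, with the number tested in brackets. All 16 replication and mitosis genes fall in the held class, and all 23 simple epithelium genes in the higher class.

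Of all genes tested 23.0% were lower and 21.3% higher, and 59.3% of those at 10 to 50 TPM and 64.1% of those above 50 TPM were held. Beside these shares the number held does not set apart the regulators used by several kinds of stem cell. Some of these regulators were both held and called. Of 25 such genes 13 were held, 10 lower and 3 higher, and 4 and 2 were called with the knockout libraries averaged to 1. Lin28a, which blocks let-7 maturation, was at 49.8 and 42.6 TPM in control and at 38.3, 35.5 and 37.5 TPM in the knockout and was held, as were Dnmt1, the maintenance methyltransferase, at 48.6 and 47.8 TPM against 41.6, 41.6 and 41.0 TPM, and Zfp281. The Polycomb subunits Ezh2 and Eed were held, with log2 fold changes of 0.33 ± 0.14 and 0.39 ± 0.16 (SE). Lin28b, the paralogue of Lin28a, was not held and fell from 10.1 and 7.27 TPM to 0.441, 0.341 and 0.440 TPM. The methyltransferase genes were exchanged, with Dnmt3a lower, at 15.9, 15.8 and 7.17 TPM against 60.5 and 49.3 TPM, and the cofactor Dnmt3l at 40.7, 37.6 and 43.0 TPM against 0.845 and 0.0568 TPM.

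Most of the abundant transcriptome was common to both lines. Of the 100 protein-coding genes with the highest mean TPM in each group 85 were shared, and 57 of the control set and 56 of the knockout set were held. Held genes made up 61.2% and 58.1% of all TPM in control and 54.1%, 54.0% and 54.3% in the knockout. Eef1a1, a translation factor, Tpt1, Actg1, Npm1 and Atp5b, a subunit of ATP synthase, were among the 10 most abundant held genes once ribosomal and mitochondrially encoded genes were passed over. Genes called higher made up 10.5% and 9.45% of TPM in control and 19.1%, 19.2% and 19.2% in the knockout. By difference in TPM the largest of these was Igf2, a placental and fetal growth factor, at 434 and 510 TPM against 1890, 1970 and 2050 TPM. Fabp3, a fatty acid carrier, was at 13.5 and 11.2 TPM against 784, 835 and 813 TPM. Snurf led the genes lower by TPM, at 1360 and 1610 TPM against 332, 262 and 327 TPM. Its rank rests on only 731 reads in control and 261 in the knockout. Ptma, next by difference in TPM, had 54398 and 44778. Cdk4, a kinase of the early cell cycle, also fell, from 990 and 736 TPM to 250, 243 and 240 TPM, and Igfbp2 from 475 and 547 TPM to 30.2, 28.9 and 33.1 TPM.

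Genes of the sex chromosomes differed too. Xist, the RNA that coats an inactive X chromosome, was at 2.37 and 1.16 TPM in control and at 40.2, 39.3 and 35.8 TPM in the knockout, and the Y-linked gene Eif2s3y at 55.5 and 32.6 TPM against 0.882, 0.927 and 1.19 TPM. All 4 Y-linked genes of the list were lower. Of 9 Y-linked genes tested 5 were lower and 1 higher, Gm47283, chosen after its values were seen, at 116 and 170 TPM in control and at 558, 632 and 664 TPM in the knockout. The sex of line and feeders is not labelled, so a difference in sex, in feeders and the knockout cannot be told apart. Of 633 X-linked genes tested 36.0% were lower and 22.4% higher, with a median log2 fold change of -0.31.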

How the data were processed

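Libraries were prepared with a TruSeq stranded mRNA kit, per the labels' protocols. The deposited tables give, per transcript, expected counts, TPM and an effective length, which the authors made with Salmon per the submitters' processing notes; its version and transcriptome build are not given in the sources used here. DESeq2 and edgeR are also named there. Transcripts were assigned to genes with GENCODE vM21 (GRCm38), and 133399 of 133618 matched. For each gene, the deposited expected counts and TPM of its transcripts were added up, and the counts rounded to whole numbers.

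All 9 libraries (10849490 to 17892751 estimated reads) entered edgeR 4.0.16 (R 4.3.3), with a mean per group, TMM scaling and filterByExpr, without a replicate term. Genes were called by the quasi-likelihood test at a Benjamini-Hochberg adjusted p below 0.05, and held where the 95% interval lay within 2-fold. A gene without reads in a group has a bound from 3 counts over that group, which covers counting error only. Named genes are Dkk1, list members, and the 10 protein-coding genes higher, lower and held with the largest TPM difference or level. Ribosomal and mitochondrial genes were passed over among the held ones. The comparison, lists and members were chosen with earlier results of these data known, so adjusted p-values are descriptions for listed genes. The pipeline was tested on simulated data. Alternatives were DESeq2 1.42.0, limma-trend 3.58.1, other scalings and filters, a length offset, a replicate block, only the 2 groups, the knockout libraries averaged to 1, and each library left out. Promoter windows are from RefSeq (GRCm38.p6). Some results are not reported here.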

Additional observations from a re-analysis of the deposited data

How the results depend on the processing

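With the 3 knockout libraries averaged to 1, genes higher numbered 1355, lower 1369 and held 3416, against 3857, 4161 and 6433, and Dkk1 (log2 fold change -3.15) lost its call (adjusted p = 0.129, range over its alternatives 2.9e-08 to 0.129). Limma-trend called 2009 genes higher on log2(TPM + 0.1) and 2094 on log2(TPM + 1); the cause was not tested. A stricter interval, within 1.5-fold, held 2479 genes. Leaving out a library gave 2911 to 3131 genes higher, 3140 to 3343 lower and 5192 to 5544 held, and Dkk1 values of -3.34 to -2.89. Of 308 named genes 183 stayed on the same side of the threshold in each of the 17 alternatives that tested them. A change of sign in a gene not called was not counted. Of the 205 named genes called in the main fit, 74 lost their call with the knockout averaged, and no call changed direction. Same-numbered control and knockout libraries did not deviate together (correlations -0.01 and -0.05 over 11638 genes), whereas same-numbered control and IWP2-line libraries did (0.454 to 0.689). A replicate block by number gave 3596 genes higher, 3744 lower and 6173 held, and by file letter 3722, 3826 and 6245. Recovery of small changes is limited by 2 control libraries. Levels under 1 TPM rest on few reads, and the SE of a change against such a level may be too small.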

Other observations

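Protein-coding genes seen in only 1 of the 2 lines gave a coarse view of the difference. At 5 TPM or more in every knockout library and under 0.5 TPM in both control libraries there were 87 such genes, 21 of them on the X chromosome, which held 633 of the 18096 genes tested, and 73 of the 87 were also under 0.5 TPM in all 4 IWP2-line libraries. The converse held for 56 genes, 2 of them on the X chromosome, and 30 of the 56 were at 5 TPM or more in all 4 IWP2-line libraries. Among the 87, chosen after their values were seen, were Ap1m2, an epithelial sorting adaptor subunit, at 56.3, 56.0 and 54.6 TPM in the knockout, Ren1, which encodes renin, at 56.0, 61.5 and 60.7 TPM, and Dppa4, without a read in control and at least 745-fold higher. Among the 56 were Trh, the precursor of thyrotropin-releasing hormone, at 545 and 355 TPM in control and at most 0.0365 TPM in the knockout, and Vtn, which encodes vitronectin, without a read in the knockout and at least 381-fold lower.

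The shares of RefSeq windows that hold the letters of 7 motifs are given for genes higher, genes lower and all genes tested. GCCNNNGGC (TFAP2) was in 25.6% of 2817 windows of genes higher, 26.3% of 2900 of genes lower and 24.5% of all 12544. ATGCAAAT (octamer) was in 1.85%, 1.83% and 1.41%, and CATTCC (TEAD) in 12.2%, 14.6% and 12.4%. For AGATAA, a core that GATA factors bind, the shares were 6.39%, 6.07% and 6.29%, for ACCGGAAG (ETS) 3.62%, 3.17% and 4.23%, for CTTTGAT (TCF/LEF) 2.31%, 2.69% and 2.5%, and for AACCGGTT (GRHL) 0.213%, 0.276% and 0.231%. Both strands were searched, and a match is a description of letters.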
